A study of Mus musculus with 6 samples.

Results

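The 10 genes described here serve renal phosphate handling and its hormonal control: the sodium-phosphate cotransporters Slc34a1, Slc34a3, Slc20a1 and Slc20a2, the FGF23 receptor pair Kl and Fgfr1, the parathyroid hormone receptor Pth1r, and Cyp27b1, Cyp24a1 and Vdr of the vitamin D system. They were chosen by name, and 18 probes of the 56599 analysed carry one of these names. All 10 genes were among the 22741 tested. RNA came from the renal cortex of male C57BL/6 mice that ate a diet with 60% of calories from fat from the age of 8 weeks. After 4 weeks of it they received streptozotocin, a beta cell toxin, at 60 mg/kg on 3 days. One group of 3 samples was wild type (WT) and the other group of 3 lacked the C3a receptor (C3aR-/-), and both were collected 26 weeks after streptozotocin. Since every mouse was diabetic, the question is how loss of the receptor relates to these genes in the diabetic cortex, and non-diabetic mice were not analysed here. The labels do not say in which cells or by which allele the receptor gene was deleted, nor that the replicates were separate animals, so p-values measure only the spread between these samples.

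Most filtered phosphate is taken back in the proximal tubule by Slc34a1 and Slc34a3, which carry it across the brush border with sodium. Parathyroid hormone, through Pth1r, and FGF23, a bone hormone that needs klotho (Kl) beside an FGF receptor, both remove these carriers from the brush border. FGF23 also lowers calcitriol, the active form of vitamin D, by acting on Cyp27b1, which makes it, and Cyp24a1, which breaks it down, while Vdr is the nuclear receptor that calcitriol binds.

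The sequences upstream of the start sites are shown for the members whose values the results turn on. They are the 250 bases before the start site in RefSeq (GRCm38.p6), 5′ to 3′ on the gene's strand, at chr13:55399398-55399647 (+) for Slc34a1, chr2:25234235-25234484 (-) for Slc34a3, chr5:150952357-150952606 (+) for Kl and chr2:129198523-129198772 (+) for Slc20a1. Capitals mark matches on either strand to GTTAAT (a half-site of HNF1, a proximal tubule transcription factor), AGGTCA (a half-site of nuclear receptors such as Vdr), CACGTG (an E-box), GGGCGG (a GC box) and, for the TATA box, TATAAA.
Slc34a1: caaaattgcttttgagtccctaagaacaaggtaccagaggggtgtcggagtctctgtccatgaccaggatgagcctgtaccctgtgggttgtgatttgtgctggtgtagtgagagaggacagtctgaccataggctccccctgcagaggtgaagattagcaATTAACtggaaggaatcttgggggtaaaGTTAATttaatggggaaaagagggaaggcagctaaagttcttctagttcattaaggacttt
Slc34a3: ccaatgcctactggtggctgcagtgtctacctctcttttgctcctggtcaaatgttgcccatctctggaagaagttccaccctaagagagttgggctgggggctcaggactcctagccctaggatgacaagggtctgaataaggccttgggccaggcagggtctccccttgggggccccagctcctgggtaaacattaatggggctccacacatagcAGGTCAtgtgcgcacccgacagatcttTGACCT
Kl: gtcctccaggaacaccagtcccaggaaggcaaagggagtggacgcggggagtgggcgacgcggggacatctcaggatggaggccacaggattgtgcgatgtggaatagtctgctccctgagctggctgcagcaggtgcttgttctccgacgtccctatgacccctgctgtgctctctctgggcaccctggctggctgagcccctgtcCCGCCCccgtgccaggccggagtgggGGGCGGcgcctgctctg
Slc20a1: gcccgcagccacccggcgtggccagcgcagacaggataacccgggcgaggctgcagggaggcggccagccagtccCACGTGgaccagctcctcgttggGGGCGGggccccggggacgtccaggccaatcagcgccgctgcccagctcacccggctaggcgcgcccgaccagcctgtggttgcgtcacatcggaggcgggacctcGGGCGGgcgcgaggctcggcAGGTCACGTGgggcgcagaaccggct
The Slc34a1 window held GTTAAT at 89 and at 61 bases before the start site, a motif found in 6.43% of 32851 windows of this length. The Slc34a3 window held none of it but AGGTCA at 33 and 6 bases before the start (14.0% of windows). Kl had GGGCGG at 43 and 17 bases (32.7% of windows). The Slc20a1 window shown had GGGCGG at 152 and 46 bases, CACGTG at 175 and 22 bases (6.02% of windows), and AGGTCA at 26 bases, overlapping the second E-box. RefSeq gives Slc20a1 another start, whose window (chr2:129206846-129207095, +) had a GC content of 50.8%, no E-box, GGGCGG at 140 bases and AGGTCA at 75 bases; which start these probes follow was not analysed here. TATAAA, present in 12.4% of windows, was in none of the 4. The GC content was 46.4% for Slc34a1, 56.4% for Slc34a3, 66.8% for Kl and 75.2% for the Slc20a1 window shown, against a median of 52.4% over all windows. These matches describe letters and were not tested as binding sites.

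C3ar1, the targeted gene, averaged -3.48 ± 0.47 (SD, n = 3) for WT arrays and -4.58 ± 0.44 (SD, n = 3) for the others, without overlap. The difference was -1.10 ± 0.30 (limma, adjusted p = 0.931), or -0.84 without WT replicate 1 and -0.65 without that array and C3aR-/- replicate 2. The C3aR-/- mean was near the lowest levels well above background on those arrays (-5.37, -4.75 and -5.12). The sources used here do not tell whether the deletion covers the C3ar1 probe. Levels are log2 signals relative to each array's 75th percentile, and levels of different genes, read by different probes, are not comparable. Between 58.6% and 63.0% of probes were well above background on an array, and the number of arrays limits the precision. All 20 proximal tubule markers and all 7 podocyte markers were measured. The filter on dim probes kept 4 of 6 fat markers, leaving out Adipoq and Plin1. It kept 3 of 6 adrenal markers, leaving out Cyp11a1, Cyp11b1 and Cyp11b2. Relative to each gene's mean over the arrays, the kept fat markers averaged -0.21, -1.02 and 1.08 on WT replicates 1 to 3. On C3aR-/- replicates 1 to 3 they averaged -0.09, -0.65 and 0.89. These means rested largely on 1 gene, Cfd, which read -5.04, -7.07 and -0.44 in WT and -4.15, -5.53 and -0.36 in C3aR-/-. Its -7.07 on WT replicate 2 lay below -4.79, the lowest level well above background on that array. WT replicate 1 and C3aR-/- replicate 2 had the most extreme scores, with opposite signs, on the first principal component, which held 43.1% of the variance.

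None of the 10 genes passed the threshold, with limma's adjusted p at 0.931 for 9 of them and at 0.963 for Slc20a2. In these bulk samples, fewer cells of a type and less RNA per cell cannot be told apart. Differences here and below are C3aR-/- minus WT on the log2 scale from limma, with standard errors for 3 arrays per group, and p-values were adjusted over all 22741 genes. At an adjusted p under 0.05 limma called 0 members, as it called 0.0% of all genes tested, and at an unadjusted p under 0.05 it also called 0 members, against 4.89% of all genes (2.21% higher and 2.68% lower). That count was 1 (Cyp27b1) without C3aR-/- replicate 2, where 4.65% of all genes had such a p. It was 2 (Slc34a3 and Kl) without WT replicate 2, where 6.70% of all genes did. Read by sign alone, 8 of the 10 differences were positive, where 56.6% of all genes were, and the median was 0.25 against 0.03 for all genes. Leaving out WT replicate 1 gave a median of 0.07, leaving out C3aR-/- replicate 2 gave 0.09, and leaving out both gave 0.01. The count of positive differences was then 9, 7 and 5 of 10 in turn, and 6 with array weights, where the share over all genes lay between 54.6% and 57.0%. Where WT replicate 1 was lowest in WT and C3aR-/- replicate 2 highest in C3aR-/-, leaving them out could only lower a gene's difference. The groups did not overlap for 3 members, Kl and Fgfr1 on the higher side (5.66% of all genes) and Slc20a1 on the lower side (4.19%), against 9.85% of all genes in either direction.

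**Figure D1:**
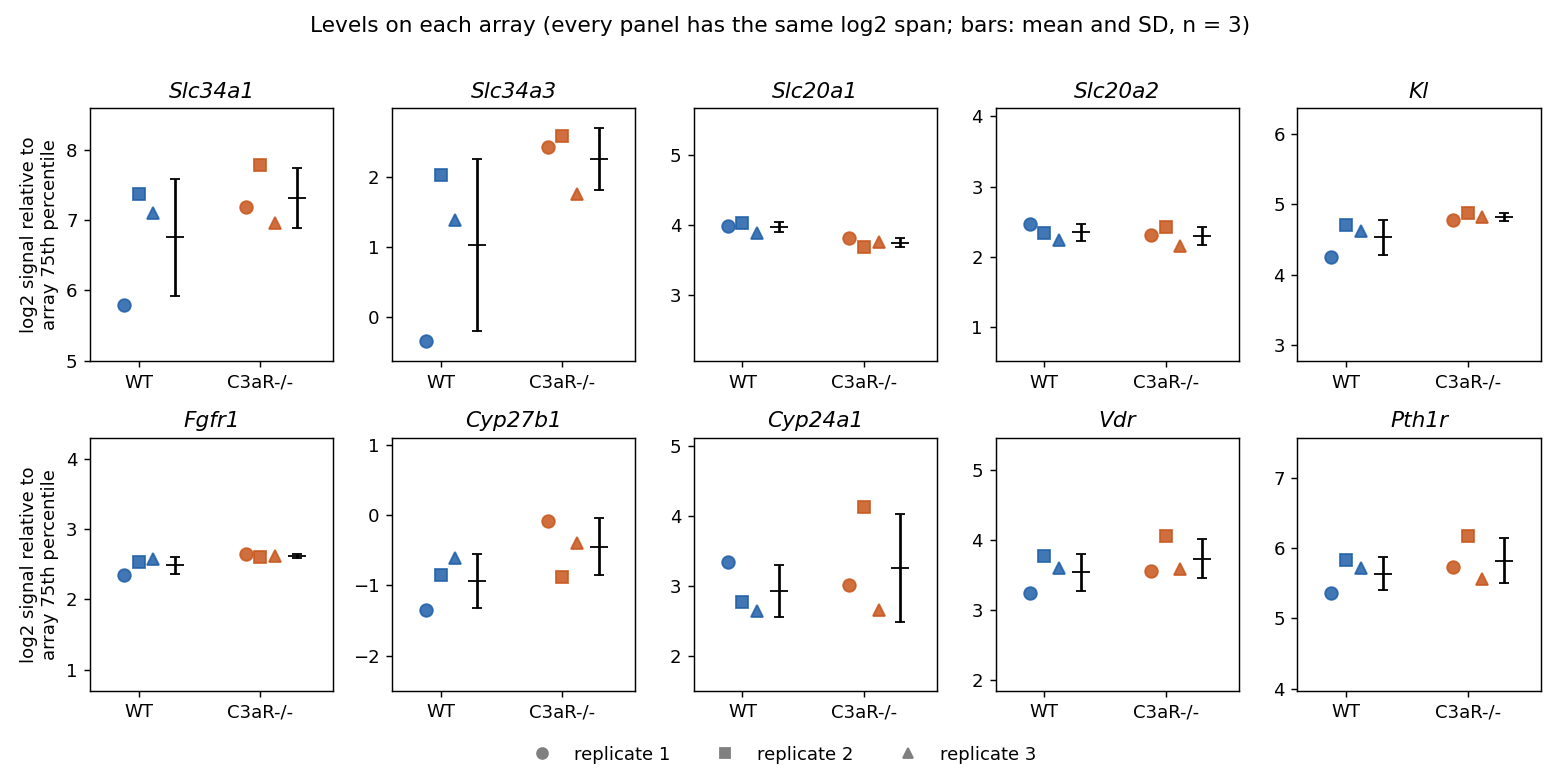
Level of each of the 10 genes (y axis, log2 signal relative to the array's 75th percentile) on the 3 WT arrays (blue) and 3 C3aR-/- arrays (orange), with marker shapes for the replicate number and bars for the mean and SD (n = 3). WT replicate 1 lies lowest for Slc34a1 at 5.80 and Slc34a3 at -0.34, and the groups are apart for Slc20a1, Kl and Fgfr1.

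Over all 6 arrays, the type II cotransporters of the brush border had the widest spreads and the largest differences of the 10 genes, an order that rested on WT replicate 1. Without it Cyp24a1 had the widest span, and the Slc34a1 difference was below those of Cyp24a1, Slc34a3, Cyp27b1 and Kl. Slc34a3, a proximal tubule carrier whose loss in people causes rickets with phosphate wasting and hypercalciuria, read -0.34, 2.03 and 1.39 on WT replicates 1 to 3 and 2.42, 2.59 and 1.76 on C3aR-/- replicates 1 to 3. WT replicate 1 stood far below the other arrays, and WT replicate 2 lay above the lowest C3aR-/- array, so the groups overlapped. The difference was 1.23 ± 0.60, or 2.34 times the WT level with a 95% interval from 0.859 to 6.39 (limma, adjusted p = 0.931). It was 0.54 without WT replicate 1 and 0.38 without that array and C3aR-/- replicate 2. Within slide row 1, which holds 2 arrays of each group, it was 0.79. With the row as a block the standard error was 0.32 and the adjusted p from limma 0.534. Row 2 holds only WT replicate 1 and C3aR-/- replicate 3, and the difference between them was 2.10. Every row 2 value below compares this same pair, so it is no check apart from WT replicate 1.

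Slc34a1, the main phosphate carrier of the adult proximal tubule, read 5.80, 7.36 and 7.10 in WT and 7.19, 7.79 and 6.95 in C3aR-/-. Again WT replicate 1 was the lowest array, while the other WT arrays lay among those of C3aR-/-. The difference was 0.56 ± 0.44, 1.47 times the WT level with an interval from 0.708 to 3.07 (limma, adjusted p = 0.931). Leaving out WT replicate 1 gave 0.08, leaving out C3aR-/- replicate 2 gave 0.32 and leaving out the pair gave -0.16, so its direction rested on these arrays. These were its lowest WT and highest C3aR-/- arrays, so leaving them out could only lower the difference. It was 0.26 within row 1 and 1.16 in row 2.

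A second probe measured each of these carriers, and its sequence is shown because it checks the first at another place in the transcript. The Slc34a1 probe lies at chr13:55514826-55514885 and the Slc34a3 probe at chr2:25086307-25086366 (both mm9, probe strand given 5′ to 3′, no part in capitals).
Slc34a1 second probe: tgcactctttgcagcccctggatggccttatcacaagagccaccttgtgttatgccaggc
Slc34a3 second probe: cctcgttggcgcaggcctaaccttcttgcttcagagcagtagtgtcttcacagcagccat
This Slc34a3 probe read -4.82, -2.31 and -3.12 in WT and -1.69, -1.68 and -2.40 in C3aR-/-, a difference of 1.49 ± 0.61 with an unadjusted p of 0.0475 (limma, adjusted p = 0.947), where 4.68% of single probes had an unadjusted p under 0.05. Its groups overlapped. Its level of -4.82 on WT replicate 1 was near -5.24, the lowest level well above background on that array. With normexp background correction its difference was 0.87. The second Slc34a1 probe read 3.53, 5.14 and 4.60 in WT and 4.91, 5.58 and 4.76 in C3aR-/-, a difference of 0.66 ± 0.43. Both second probes placed WT replicate 1 lowest, as the first probes did. The probes used for the gene values lie at chr13:55515201-55515259 and chr2:25084438-25084497 (mm9).

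The difference of Slc34a3 was larger than that of Slc34a1 on these arrays. The log2 level of Slc34a3 minus that of Slc34a1 was -6.14, -5.34 and -5.70 in WT and -4.77, -5.20 and -5.20 in C3aR-/-, and these values did not overlap. The means differed by 0.67, with an exact two-sided permutation p of 0.1, the smallest that 3 against 3 allows, so the design could not pass 0.05. Without WT replicate 1 the gap was 0.46, and over all arrays left out in turn it ranged from 0.46 to 0.86.

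The type III carriers, which most cell types make for their own phosphate supply, had narrow spreads. Slc20a1 (probe at chr2:129037130-129037189, mm9) read 3.99, 4.03 and 3.89 in WT and 3.82, 3.68 and 3.76 in C3aR-/-. Every C3aR-/- array lay below every WT array. The difference was -0.22 ± 0.10, 0.858 of the WT level with an interval from 0.731 to 1.01 (limma, adjusted p = 0.931). The value was alike in both rows, at -0.21 within row 1 and -0.23 in row 2, and lay between -0.26 and -0.19 when arrays were left out in turn. Its other probe (chr2:129029990-129030049, mm9), designed to another transcript, was not well above background on any array. Slc20a2 (chr8:23679961-23680020) read 2.47, 2.34 and 2.24 in WT and 2.31, 2.42 and 2.16 in C3aR-/-, with overlapping groups, a difference of -0.05 ± 0.12 and an interval on the log2 scale from -0.34 to 0.23. Its sign changed without WT replicate 1 (0.01) and without C3aR-/- replicate 3 (0.02).

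Kl, the klotho co-receptor that makes FGF receptors responsive to FGF23 and is made mainly in distal tubules (probe at chr5:151796302-151796361, mm9), read 4.25, 4.71 and 4.63 in WT and 4.77, 4.88 and 4.82 in C3aR-/-. All C3aR-/- arrays lay above all WT arrays, with a narrow gap of levels between WT replicate 2 and C3aR-/- replicate 1. The difference was 0.30 ± 0.14, 1.23 times the WT level with an interval from 0.970 to 1.56 (limma, adjusted p = 0.931). It was 0.16 without WT replicate 1 and 0.13 without both end arrays, and 0.16 within row 1 against 0.57 in row 2. A second Kl probe (chr5:151789486-151789545, mm9) read -0.08, 0.42 and 0.11 in WT and 0.34, 0.64 and 0.30 in C3aR-/-, a difference of 0.28 ± 0.17 with groups that overlapped.

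Fgfr1, an FGF receptor that pairs with klotho (probe at chr8:26685072-26685131, mm9), read 2.35, 2.53 and 2.58 in WT and 2.65, 2.60 and 2.61 in C3aR-/-. The groups were apart, but the highest WT and the lowest C3aR-/- array nearly met. The difference was 0.14 ± 0.10, and it was 0.07 without WT replicate 1. The other 3 Fgfr1 probes differed by 0.32 ± 0.16 (chr8:26682852-26682911, mm9), 0.39 ± 0.20 (chr8:26686086-26686145) and, in the opposite direction, -0.15 ± 0.13 (chr8:26680165-26680224), so the probes did not settle a sign for this gene. These 3 probes were dim, with WT means of -2.76, -3.52 and -3.75 in turn. With normexp background correction their differences were 0.22, 0.22 and -0.014.

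Pth1r, the receptor through which parathyroid hormone acts on the tubule (probe at chr9:110624846-110624905, mm9), read 5.37, 5.83 and 5.72 in WT and 5.74, 6.18 and 5.56 in C3aR-/-. The groups overlapped, with WT replicate 1 lowest and C3aR-/- replicate 2 highest. The difference was 0.18 ± 0.20, 1.14 times the WT level with an interval from 0.812 to 1.59. It was 0.05 without the first of these arrays, 0.0081 without the second and -0.13 without both.

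**Figure D2:**
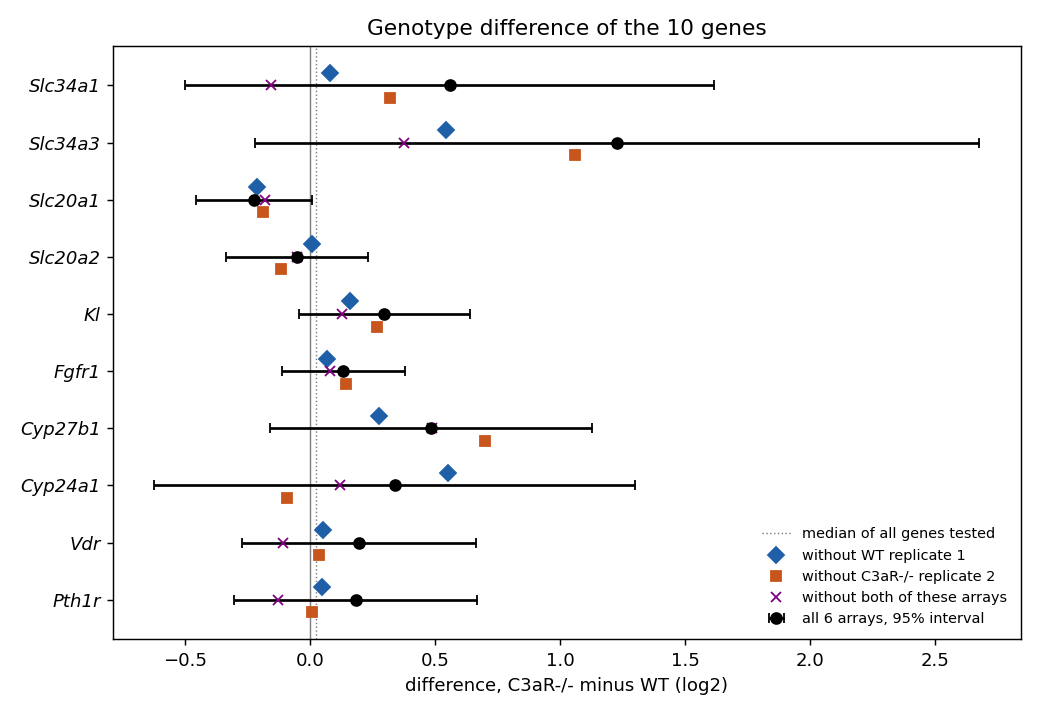
Difference C3aR-/- minus WT (x axis, log2) for the 10 genes, with the 95% limma interval over all 6 arrays (black), and coloured points for the value when WT replicate 1, C3aR-/- replicate 2 or both are left out. All 10 intervals include 0, and the values for Slc34a1, Vdr and Pth1r change sign without both arrays.

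The vitamin D genes had no common pattern over the arrays. Cyp27b1, the 1-alpha-hydroxylase that makes calcitriol (probe at chr10:126489922-126489981, mm9), read -1.35, -0.85 and -0.61 in WT and -0.08, -0.88 and -0.39 in C3aR-/-. C3aR-/- replicate 2 lay among the WT arrays, so the groups overlapped. The difference was 0.49 ± 0.27, 1.40 times the WT level with an interval from 0.896 to 2.19 (limma, adjusted p = 0.931), and it ranged from 0.28 without WT replicate 1 to 0.70 without C3aR-/- replicate 2. It was 0.25 within row 1 and 0.96 in row 2.

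Cyp24a1, the 24-hydroxylase that breaks calcitriol down (probe at chr2:170308865-170308924, mm9), read 3.34, 2.77 and 2.65 in WT and 3.01, 4.13 and 2.65 in C3aR-/-. A single array, C3aR-/- replicate 2, stood high, and WT replicate 1 came next. The difference was 0.34 ± 0.40 with an interval on the log2 scale from -0.62 to 1.30, and it was -0.09 without C3aR-/- replicate 2. Leaving out WT replicate 1 gave 0.55, and leaving out both gave 0.12. Within row 1 it was 0.86. In row 2, between C3aR-/- replicate 3 and WT replicate 1, it was -0.69, so the rows had opposite signs. The log2 level of Cyp24a1 minus that of Cyp27b1 overlapped between the groups, with means of 3.86 ± 0.75 for the WT arrays and 3.71 ± 1.12 for the C3aR-/- arrays (SDs of 3 arrays, exact two-sided permutation p = 0.8). The difference between those means, -0.15, turned to 0.27 when WT replicate 1 was left out, and to 0.17 or 0.19 when C3aR-/- replicate 1 or 3 was.

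Vdr, the calcitriol receptor (probe at chr15:97685136-97685195, mm9), read 3.25, 3.76 and 3.60 in WT and 3.56, 4.05 and 3.59 in C3aR-/-, with overlapping groups. The difference was 0.20 ± 0.19, 1.15 times the WT level with an interval from 0.828 to 1.59. The value shrank to 0.05 when WT replicate 1 was left out, to 0.04 when C3aR-/- replicate 2 was, and was -0.11 when neither was used. The second Vdr probe (chr15:97685989-97686056, mm9) differed by 0.36 ± 0.19.

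Seen by array, 7 of the 10 members had their lowest level on WT replicate 1, where 29.6% of all genes had theirs, and 6 had their highest on C3aR-/- replicate 2, against 25.8% of all genes. The 7 were Slc34a1, Slc34a3, Kl, Fgfr1, Cyp27b1, Vdr and Pth1r. Relative to the gene's mean over the 6 arrays, WT replicate 1 stood at -1.98 for Slc34a3 and at -1.24 for Slc34a1. Slc34a3 spanned 2.93 log2 units over the 6 arrays, a span that 0.567% of all genes reached, and Slc34a1 spanned 1.99 (2.68% of genes). Over the 5 arrays other than WT replicate 1 these spans were 1.19 (6.88% of genes) and 0.83 (15.8%). Cyp24a1 spanned 1.48 with and without that array (6.74% and 3.88% of genes), and Cyp27b1 spanned 1.28 (9.91%), or 0.80 without it. Fgfr1 spanned 0.30, less than the median of 0.52 over all genes.

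**Figure D3:**
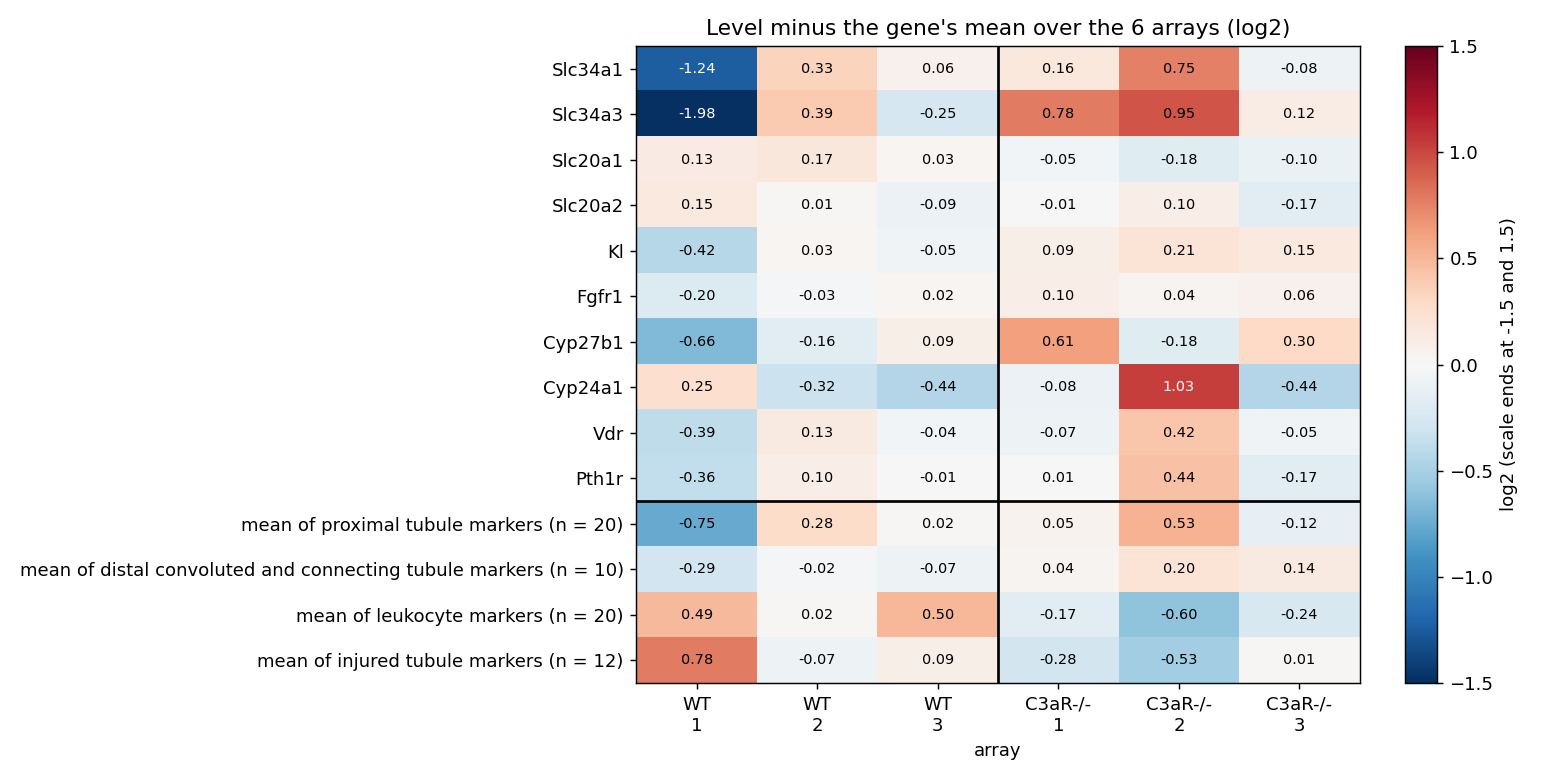
Level of each gene on each array minus its mean over the 6 arrays (log2, colour and printed value), above the mean of the same quantity over 4 marker lists. WT replicate 1 is at -1.24 for Slc34a1, -1.98 for Slc34a3 and -0.75 for the proximal tubule markers, and at 0.78 for the injured tubule markers.

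Markers of the tubule and of other cells went with the levels of several members over the arrays. The mean level of the 20 proximal tubule markers was 4.22, 5.24 and 4.99 in WT and 5.02, 5.49 and 4.85 in C3aR-/-. The 20 differences were all positive, with a median of 0.22 and 0 at an unadjusted p under 0.05 (limma), and 19 of the 20 were lowest on WT replicate 1. Without that array 10 of the 20 were positive, with a median of -0.0055, and without both end arrays 4 were, with a median of -0.14. Slc5a12, a lactate carrier, differed by 0.70 ± 0.39 (0.32 without WT replicate 1) and Slc6a19, a neutral amino acid carrier, by 0.75 ± 0.44 (0.46 without it). The mean level of 20 leukocyte markers ran from 0.53 to 1.01 in WT and from -0.09 to 0.34 in C3aR-/-, and that of 12 injured tubule markers from 3.35 to 4.20 in WT and from 2.90 to 3.43 in C3aR-/-. Of the leukocyte markers 18 of 20 differences were negative and 12 had an unadjusted p under 0.05 (limma), against 4.89% of all genes. Cd6 (-1.22 ± 0.21) and Cd2 (-1.46 ± 0.32) of T cells had the smallest. Without WT replicate 1 these counts were 18 and 8, against 4.89% of all genes with such a p. Without both end arrays they were 18 and 7, against 8.90% of all genes. Of the injured tubule markers 11 of 12 were negative and 4 had such a p, with Sox9 (-0.60 ± 0.10) and Krt19 (-0.80 ± 0.27) the smallest. All 12 had their highest level on WT replicate 1. Their median of -0.63 was -0.16 without WT replicate 1, and 8 of 12 were negative without both end arrays. The part of any of these markers in the differences of the 10 genes was not tested.

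As a description over 6 arrays that share a slide and, within a group, a genotype, the Pearson correlation with the proximal tubule mean was 0.99 for Slc34a1, 0.96 for Vdr, 0.94 for Pth1r and 0.92 for Slc34a3. For Kl it was 0.86 with the proximal mean and 0.98 with the mean of the 10 genes listed as distal tubule markers. The distal mean also gave 0.89 for Slc34a3, 0.85 for Slc34a1 and for Fgfr1, 0.81 for Vdr and 0.72 for Pth1r. It gave 0.57 for Cyp27b1, 0.22 for Cyp24a1, -0.41 for Slc20a2 and -0.81 for Slc20a1. With the leukocyte mean the correlation ran from -0.83 for Kl to 0.76 for Slc20a1. With the mean of the injured tubule markers the correlation was -0.98 for Slc34a3, -0.96 for Slc34a1 and -0.94 for Kl. It was -0.88 for Vdr and for Pth1r. All 10 genes of the distal list read higher, with a median of 0.25 (8 of 10 and 0.13 without WT replicate 1). Trpm6 (0.30 ± 0.13) and Trpm7 (0.27 ± 0.13), magnesium channels, had the smallest p, though Trpm7 is not particular to the distal tubule. With the proximal mean the correlation was 0.72 for Fgfr1, 0.37 for Cyp27b1, 0.25 for Cyp24a1, -0.16 for Slc20a2 and -0.45 for Slc20a1. Among the members, Pth1r and Vdr (0.97), Kl and Slc34a3 (0.96) and Slc34a3 and Slc34a1 (0.95) were most alike. The tested genes most like Slc34a1 over the arrays were 0610006L08Rik, Pdk2 and Amacr. Those most like Slc34a3 were Fastk, Slc5a9 and Pramel34, and those most like Kl were Pip5kl1, Slc25a21 and a transcript without a gene symbol. A closest gene with a high correlation is common with 6 arrays: each of the 10 members had one of at least 0.977. The number of genes reaching 0.95 varied between members. It ran from 11 (0.0484% of genes) for Slc20a1 to 805 (3.54%) for Slc34a1.

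The other genes of the pathway, taken from 3 lists, showed few differences past an unadjusted p of 0.05. Of 51 listed genes 46 were tested, since Klb, Phex, Dmp1, Pth and Pth2r were too dim. No gene of the 46 passed adjustment, and 2 had an unadjusted p under 0.05 (limma), against 4.89% of all genes. That count was 0 without C3aR-/- replicate 1, 1 without WT replicate 1 and 5 without WT replicate 2. The shares of all genes were then 3.37%, 4.89% and 6.70% in turn. The 5 of 46 whose groups did not overlap are a share close to the 9.85% of all genes.

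All 10 genes for phosphate scaffolds, the exporter and other carriers were tested, and 8 read higher with a median of 0.09, or 5 with a median of -0.0070 without WT replicate 1. The smallest p belonged to Slc9a3r1 (0.19 ± 0.11), the NHERF1 scaffold that holds Slc34a1 at the brush border, Xpr1 (0.15 ± 0.11), the phosphate exporter, and Stc1 (-0.28 ± 0.30), the hormone stanniocalcin. The groups overlapped for all 10.

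Of 18 tested genes for FGF23 and parathyroid hormone ligands, receptors and signalling, 14 read higher, with a median of 0.12, or 12 with 0.06 without WT replicate 1. Fgfr3, another FGF receptor of the tubule, read 1.77, 2.18 and 2.16 in WT and 2.33, 2.55 and 2.35 in C3aR-/-. The groups did not overlap, and the difference was 0.37 ± 0.15 with an unadjusted p of 0.0406 (limma, adjusted p = 0.931). It was 0.24 without WT replicate 1 and 0.17 without both end arrays. Of 18 tested genes of vitamin D supply, partners and targets, 14 read higher, with a median of 0.17, or 12 with 0.10 without WT replicate 1 and 8 with -0.03 without both end arrays. The groups of 4 did not overlap, where 9.85% of all genes had such groups. Trpv6, a calcium channel induced by calcitriol, read lower, at -1.51, -1.63 and -1.27 in WT and -2.18, -1.79 and -1.93 in C3aR-/-. Its groups did not overlap either, and the difference was -0.50 ± 0.15 with an unadjusted p of 0.0143 (limma, adjusted p = 0.931). Leaving out both end arrays gave -0.60. The 3 with higher C3aR-/- arrays, named after their values were seen, were Calb1, a calcium buffer of the distal tubule (0.35 ± 0.15), Slc8a1, a sodium-calcium exchanger (0.38 ± 0.18), and Dhcr7, an enzyme that uses up the vitamin D precursor (0.36 ± 0.16). Without both end arrays they differed by 0.14, 0.11 and 0.30.

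**Figure D4:**
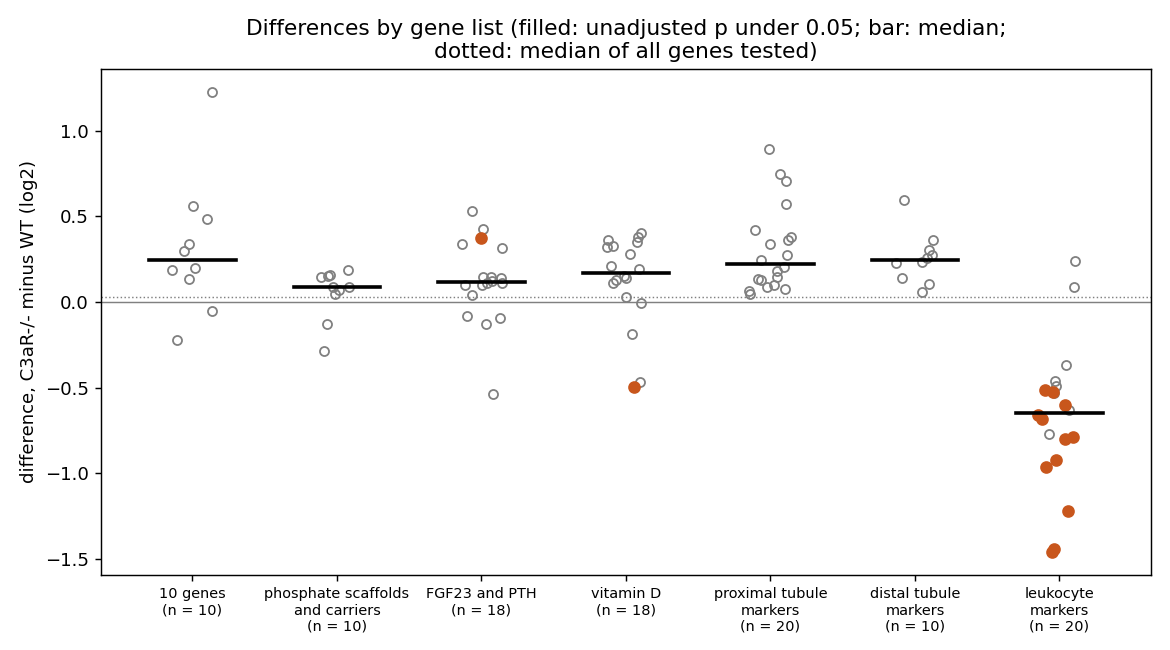
Difference C3aR-/- minus WT (y axis, log2) of each tested gene by list, with filled points for an unadjusted p under 0.05, bars for list medians and a dotted line for the median of all genes (0.03). Among the pathway lists the filled points are Fgfr3 (0.37) and Trpv6 (-0.50), and 12 of the 20 leukocyte markers are filled and negative.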

How the data were processed

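Cortical RNA (0.2 µg, Cy3) was hybridised to 6 one-colour Agilent arrays on 1 slide, 3 per group by the labels. Per the file headers, the deposited intensity values are signals processed by the authors' Feature Extraction 10.7.1.1, with background already subtracted. The deposited series table holds log2 values, whose scaling the authors do not state in the sources used here; its columns matched their own arrays (r at least 0.999, median 5.73), and it served as an alternative.

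Control spots and outlier flags were left out. Levels are log2 processed signal minus the array's 75th percentile. Probes well above background on at least 3 arrays were kept (34778 of 56599), and the probe with the highest mean stood for a gene, giving 22741 genes. RefSeq accessions (GRCm38.p6 table) gave the gene name of 32992 probes, whether or not it changed, and 23607 kept the file's name. limma 3.58.1 (R 4.3.3) tested C3aR-/- minus WT with Benjamini-Hochberg adjustment and was tested on simulated data; paired gene contrasts used exact permutation. Alternatives were the normalization, the filter, the choice of probe, blocks, array weights and left-out arrays. Probe coordinates are mm9 as deposited, and those of promoters GRCm38.p6 (RefSeq, 7 of 10 genes matched). Probes were not placed in exons or untranslated regions, since no mm9 annotation was used here.

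The members, gene lists and the alternatives on slide rows and on the ends of the first component were chosen with earlier results of these data known, and the list counts with arrays left out were added after seeing the data. Named are C3ar1, all members, the pathway genes with an unadjusted p under 0.05 or otherwise the 3 with the smallest p, the 2 marker genes with the smallest p in a list described, and the 3 genes most correlated with Slc34a1, Slc34a3 and Kl. Cfd was named after its values were seen. The thick ascending limb markers had a median difference of 0.13 and the podocyte markers 0.01.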

Additional observations from a re-analysis of the deposited data

How the results depend on the processing

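No gene passed an adjusted p under 0.05 in limma under any of the 18 alternatives, while 1111 genes had an unadjusted p under 0.05. That count was 2115 (9.30% of genes) with array weights and 1741 (7.66%) with the slide row as a block. It was 2025 (8.90%) without both ends of the first component. When each array was left out in turn it lay between 767 (3.37%) and 1523 (6.70%). The share was 7.02% with the replicate number as a block and between 3.27% and 5.09% under the remaining alternatives. The count of members with an unadjusted p under 0.05, which was 0, became 2 with array weights (Slc20a1, Cyp27b1) and 2 with a trended, robust prior (Slc20a1, Kl). It became 1 with the authors' table, normexp and quantile normalization (Slc20a1), the row block (Slc34a3) or without both ends (Cyp27b1), and lay between 0 and 2 when arrays were left out. The pathway count of 2 became 4 with array weights or a trended, robust prior, 5 with the mean of a gene's probes or normexp, 1 with no filter, 7 with the row block and 0 to 5 when arrays were left out. Directions turned for Vdr (-0.039) and Pth1r (-0.013) with array weights, and for Slc34a1 (-0.16), Vdr (-0.11) and Pth1r (-0.13) without both ends. They turned for Cyp24a1 without C3aR-/- replicate 2 (-0.091; up to 0.64 with other arrays left out), for Slc20a2 without WT replicate 1 (0.010) or C3aR-/- replicate 3 (0.018), and for Fgfr1 with another of its probes (-0.15). The contrast of Cyp24a1 and Cyp27b1, -0.15, ranged from -0.79 to 0.27 with arrays left out, and was positive without WT replicate 1 (0.27), C3aR-/- replicate 1 (0.17) or C3aR-/- replicate 3 (0.19). The cause of these turns was not tested. The labels share replicate numbers between groups, but same-numbered arrays correlated at 0.13, 0.41 and -0.09 in their deviations, so the numbers were not taken as pairing. With the replicate block, 1596 genes, 6 pathway genes and 0 members had an unadjusted p under 0.05. Normexp took the second Slc34a3 probe from 1.49 to 0.87. Of the 18 member probes 17 were well above background on all 6 arrays, and the other, for Slc20a1, was too dim to be tested.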
